A study of Homo sapiens with 6 samples.

Results

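The HOX cluster miRNAs examined here are 8 mature miRNAs of the miR-10, miR-196 and miR-615 families: hsa-miR-10a-5p, hsa-miR-10a-3p, hsa-miR-10b-5p, hsa-miR-10b-3p, hsa-miR-196a-5p, hsa-miR-196b-5p, hsa-miR-196b-3p and hsa-miR-615-3p. They were taken by name from the 2588 mature miRNAs of the count tables, because their hairpins lie inside the HOX gene clusters. Of the 8, 7 passed the filter on low counts and were tested, and hsa-miR-196b-3p did not pass. The question asked of them was how far an antibody against N7-methylguanosine (m7G) recovers each one, by arm and by family member, relative to the total RNA of the same kind of cells.

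The cells were A549, a lung adenocarcinoma line of human origin, and carried a doxycycline-inducible short hairpin RNA against METTL1, an enzyme that places m7G in RNA. Small RNA was sequenced from 3 libraries of total RNA and 3 of RNA pulled down with the anti-m7G antibody (m7G-RIP), and all 6 came from knockdown cells harvested 5 days after doxycycline was given at 200 ng/ml. Libraries of METTL1-proficient cells or of a control antibody were not analysed here, so the comparison is between m7G-RIP and total RNA within knockdown cells and does not measure an effect of METTL1. The growth text of the m7G-RIP samples describes the medium of Caco-2, a colorectal line. These samples were treated as A549 after their titles and cell line labels. Counts of the total RNA and m7G-RIP groups were deposited separately. Any difference in handling between the groups cannot be told apart from recovery by the antibody. The labels call the libraries replicates without saying whether they came from separate cultures, so p-values measure only the spread between these libraries, which may be technical.

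HOX genes encode transcription factors that set position along the body axis, and they lie in the clusters HOXA to HOXD. The miR-10 and miR-196 hairpins are embedded in these clusters, are transcribed in the same direction as neighbouring HOX genes, and are known to repress HOX mRNAs, miR-196 through HOXB8 and miR-10b through HOXD10. A hairpin gives a 5p and a 3p arm, of which usually one is loaded into Argonaute as the guide and the other is degraded as the passenger. The guide finds mRNAs mainly through its seed, bases 2 to 8 from the 5′ end.

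In GRCh38 the 8 miRNAs come from 6 hairpins, whose RefSeq coordinates equal those of GENCODE release 44. MIR10A is at chr17:48579838-48579947 on the minus strand, in an intron of HOXB3 and 1488 bases from HOXB4, and it also overlaps an exon of a lncRNA on the same strand. MIR10B is at chr2:176150303-176150412 on the plus strand, in an intron of HOXD3 and 1138 bases from HOXD4. The same mature hsa-miR-196a-5p is made from MIR196A1, at chr17:48632490-48632559 on the minus strand in an intron of HOXB7, and from MIR196A2, at chr12:53991738-53991847 on the plus strand in an intron of HOXC6, so its reads cannot be assigned to either. MIR196B is at chr7:27169480-27169563 on the minus strand, overlaps an exon annotated to HOXA9 and, on the other strand, an exon of HOXA10-AS, and is 1042 bases from HOXA10. MIR615 is at chr12:54033950-54034045 on the plus strand, in an intron of HOXC5.

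Mature sequences were read from RefSeq (GRCh38.p14), which matched 7 of the 8 members. hsa-miR-10b-5p had no entry and is given by name only. They are shown because the results below turn on which arm and which close relative was recovered, and on how much G each one carries. Each runs 5′ to 3′, with the seed in capitals.
hsa-miR-10a-5p: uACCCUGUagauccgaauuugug
hsa-miR-10a-3p: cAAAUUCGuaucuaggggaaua
hsa-miR-10b-3p: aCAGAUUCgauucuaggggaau
hsa-miR-196a-5p: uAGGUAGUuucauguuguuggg
hsa-miR-196b-5p: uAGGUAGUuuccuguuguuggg
hsa-miR-196b-3p: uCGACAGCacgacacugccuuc
hsa-miR-615-3p: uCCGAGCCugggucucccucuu
hsa-miR-615-5p, the other arm of the MIR615 hairpin: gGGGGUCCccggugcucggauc
Among tested miRNAs with a sequence, hsa-miR-196a-5p and hsa-miR-196b-5p shared their seed only with each other. They differ at a single base, A12C, with the base of hsa-miR-196a-5p first and positions counted from 1 at the 5′ end. The seeds of hsa-miR-10a-5p, hsa-miR-10a-3p, hsa-miR-10b-3p and hsa-miR-615-3p were each found in no other tested miRNA with a sequence, a set that does not include hsa-miR-10b-5p. Whether hsa-miR-10b-5p shares the seed of hsa-miR-10a-5p could therefore not be read here, and the hsa-miR-10a-5p seed is not to be taken as its own alone. The 3p arms of miR-10a and miR-10b have different seeds but share a run of 11 bases, ucuaggggaau, which holds 4 consecutive G.

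The libraries held 9155690 to 10753443 counts in total RNA and 2649238 to 3106556 in m7G-RIP. A floor of 3 counts corresponded to 0.339 to 0.394 CPM (counts scaled to a common library size) in total RNA and to 0.803 to 0.942 CPM in m7G-RIP, and it covers counting error only. Levels below are CPM scaled by TMM, edgeR's correction for library composition, as mean ± SD over 3 libraries. A read covers a whole mature miRNA, so counts of different miRNAs were compared without division by length. How evenly different miRNAs entered the libraries was not measured. Orders of level and ratios between arms are therefore those of reads and may differ from those of molecules. How much RNA each pull-down yielded is unknown, so a ratio says how a miRNA moved against the rest of its library. Of the marker miRNAs, the 4 epithelial ones were all detected, with a summed level of 498 to 527 CPM in total RNA and 213 to 277 CPM in m7G-RIP, the liver marker was at 0, and 4 of 5 blood markers were at 0 in every library. The gut set (miR-192, miR-194 and miR-215), which bears on the Caco-2 wording, summed to 21592 to 22196 CPM in total RNA and 2907 to 3181 CPM in m7G-RIP, and the neural pair to 495 to 609 CPM and 93.7 to 130 CPM. The muscle set summed to 9.07 to 11.8 CPM in total RNA and 0.535 to 117 CPM in m7G-RIP, the highest value being that of m7G-RIP replicate 2, and its part in the results was not tested.

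The HOX cluster miRNAs did not move as one group. With TMM scaling, both miR-196 guide arms were higher in m7G-RIP than in total RNA and both miR-10 5p arms were lower. The 3p arms of miR-10a, miR-10b and miR-615 did not pass the test. By edgeR's quasi-likelihood test with Benjamini-Hochberg adjustment over all 620 miRNAs tested, 2 of the 7 tested members were enriched (28.6%), beside 23.5% of all tested miRNAs. Another 2 of 7 were depleted (28.6%), beside 29.2% of all. All 3 m7G-RIP libraries lay above all 3 total RNA libraries for 2 members, where this held for 29.5% of tested miRNAs, and below for 2, where it held for 36.5%. The call of hsa-miR-10a-5p and its lack of overlap depended on scaling. With library size alone its log2 ratio was 0.03 (edgeR adjusted p = 0.836), and its shares of all counts overlapped between the groups. The 7 had a median log2 ratio of 0.13, beside -0.074 over all that were tested. As shares, these counts lie close to the background, so the description below is of the single members.

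**Figure D1:**
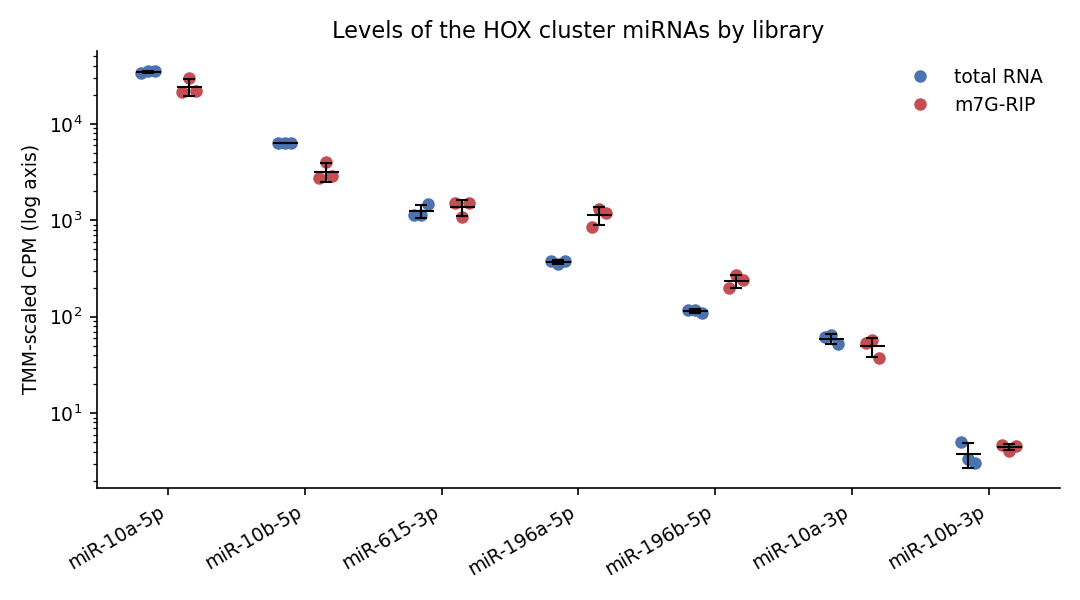
TMM-scaled CPM on a log axis for the 7 tested HOX cluster miRNAs in each of 3 total RNA (blue) and 3 m7G-RIP (red) libraries, with black bars for the mean ± SD. The red points of miR-196a-5p and miR-196b-5p lie above all blue points, those of miR-10a-5p and miR-10b-5p below, and the other 3 miRNAs overlap.

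hsa-miR-196a-5p, which pairs extensively with HOXB8 mRNA, had the highest log2 ratio of the members. Its level was 377, 354 and 382 CPM in total RNA and 859, 1320 and 1186 CPM in m7G-RIP. The lowest m7G-RIP library was thus above the highest total RNA library by a wide margin, although the m7G-RIP libraries spread more. The mean went from 371 ± 15 to 1122 ± 237 CPM (SD, n = 3), a 3.02-fold higher level with a log2 ratio of 1.60 (SE 0.16, 95% interval 1.22 to 1.97, edgeR adjusted p = 4.02e-05). It ranked 116th by log2 ratio among the 620 tested miRNAs. By level it rose from rank 100 in total RNA to rank 46 in m7G-RIP.

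hsa-miR-196b-5p, its close relative from the HOXA cluster, was read at 119, 119 and 108 CPM in total RNA and at 197, 270 and 242 CPM in m7G-RIP. The groups again did not overlap, and replicate 1 was the lowest m7G-RIP library for both miR-196 guides. The mean rose from 115 ± 6.0 to 236 ± 36.8 CPM (SD, n = 3), 2.05-fold, with a log2 ratio of 1.03 (SE 0.17, 95% interval 0.65 to 1.42, edgeR adjusted p = 0.000886). Its rank among all log2 ratios was 174. The passenger arms of these hairpins were hardly seen. hsa-miR-196b-3p had 0, 0 and 1 counts in total RNA and 0 in each m7G-RIP library, and hsa-miR-196a-3p had 8, 4 and 4 counts in total RNA and 0 in each m7G-RIP library. The first was at or under the floor everywhere. For hsa-miR-196a-3p the total RNA counts amounted to 0.903, 0.475 and 0.526 CPM, which is near or under what 3 counts are worth in m7G-RIP, so a difference was not detectable at this depth and no ratio is given for either.

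hsa-miR-10b-5p, a miRNA known for its role in tumour cell invasion, had the lowest log2 ratio of the members. In total RNA it stood at 6345, 6294 and 6285 CPM, and in m7G-RIP at 2717, 4044 and 2851 CPM. Total RNA libraries were nearly level, and m7G-RIP replicate 2 was the highest of its group while remaining under every total RNA library. The mean fell from 6308 ± 32.3 to 3204 ± 730 CPM (SD, n = 3), 1.97-fold lower, with a log2 ratio of -0.98 (SE 0.15, 95% interval -1.32 to -0.63, edgeR adjusted p = 0.000643). It ranked 407th of 620 by log2 ratio.

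hsa-miR-10a-5p was by far the most abundant of the 8, the 6th most abundant miRNA of total RNA and the 8th of m7G-RIP. It was measured at 33976, 35119 and 35528 CPM in total RNA and at 21383, 29799 and 21978 CPM in m7G-RIP. With TMM scaling every m7G-RIP library lay below every total RNA library, and replicate 2 was again the highest of its group. The mean fell from 34874 ± 805 to 24387 ± 4697 CPM (SD, n = 3), 1.43-fold lower, with a log2 ratio of -0.52 (SE 0.13, 95% interval -0.82 to -0.21, edgeR adjusted p = 0.0105), but with library size alone in place of TMM the ratio was 0.03 and no longer passed the test (edgeR adjusted p = 0.836). As a share of all counts it took 2.80, 2.88 and 2.95% in total RNA and 2.74, 3.44 and 2.64% in m7G-RIP, and these shares overlapped. Library size alone moved the median over all 620 up by 0.55 on the log2 scale. Relative to that median, hsa-miR-10a-5p was at -0.44 with TMM and at -0.45 with library size alone. A change of scaling moves all ratios by nearly the same amount, so this match was built in and does not bear on the call. Against each setting's own median, hsa-miR-10a-5p ran from -0.75, without total RNA replicate 3, to 0, with no filter on low counts.

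The 3p arms of the miR-10 hairpins are their passenger arms by abundance. hsa-miR-10a-3p was at 61.4, 65.3 and 51.5 CPM in total RNA and at 53.0, 57.8 and 37.2 CPM in m7G-RIP, and the groups overlapped. Its log2 ratio was -0.27 (SE 0.24, 95% interval -0.82 to 0.28, edgeR adjusted p = 0.377), and it was 0.29 with library size alone, so the direction depended on scaling. hsa-miR-10b-3p rested on 45, 28 and 23 counts in total RNA and 16, 13 and 17 counts in m7G-RIP. That is 5.08, 3.33 and 3.02 CPM against 4.71, 4.08 and 4.55 CPM, overlapping values with a log2 ratio of 0.22 (SE 0.68, 95% interval -1.31 to 1.75, edgeR adjusted p = 0.793). The width of this interval means that at this depth neither a 2-fold rise nor a 2-fold fall could be told from no difference.

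hsa-miR-615-3p, the more abundant arm of the HOXC5 intronic hairpin, was read at 1141, 1137 and 1481 CPM in total RNA and 1510, 1081 and 1514 CPM in m7G-RIP. Here m7G-RIP replicate 2 was the lowest library of all, whereas it was the highest m7G-RIP library for both guides of miR-10 and both of miR-196. The means of 1253 ± 197 and 1368 ± 249 CPM (SD, n = 3) gave a log2 ratio of 0.13 (SE 0.17, 95% interval -0.25 to 0.50, edgeR adjusted p = 0.54). With library size alone it was 0.69 and past the threshold (edgeR adjusted p = 0.0113). Relative to the median of all tested miRNAs it was at 0.20 with TMM and 0.21 with library size alone, a match that is again built in. Against each setting's own median it ran from -0.12, without total RNA replicate 1, to 0.66, with no filter on low counts. The other arm, hsa-miR-615-5p, had 45, 69 and 42 counts in total RNA and 135, 57 and 134 counts in m7G-RIP. Its level went from 6.27 ± 1.69 to 31.2 ± 11.7 CPM (SD, n = 3), 4.96-fold higher, with a log2 ratio of 2.31 (SE 0.43, 95% interval 1.34 to 3.28, edgeR adjusted p = 0.00168), and all m7G-RIP libraries were above all total RNA libraries.

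**Figure D2:**
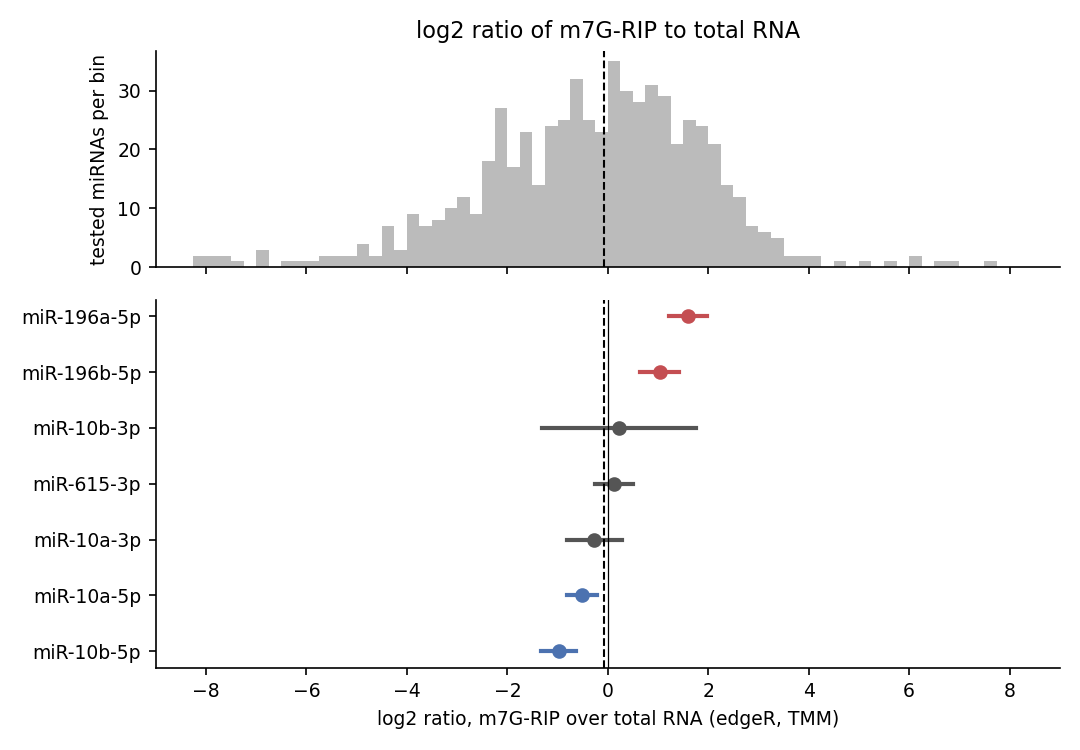
Top, number of tested miRNAs per bin of 0.25 in the log2 ratio of m7G-RIP to total RNA. Bottom, the ratio of each tested HOX cluster miRNA with its 95% interval from edgeR (red enriched, blue depleted, grey not past the threshold; dashed line, median of all 620): miR-196a-5p and miR-196b-5p lie to the right of 0, miR-10a-5p and miR-10b-5p to the left, and the other 3 intervals include 0.

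The members kept the same order of mean levels in both groups. In total RNA it ran from hsa-miR-10a-5p through hsa-miR-10b-5p, hsa-miR-615-3p, hsa-miR-196a-5p, hsa-miR-196b-5p and hsa-miR-10a-3p to hsa-miR-10b-3p, and no neighbours in this order overlapped. In m7G-RIP, however, hsa-miR-615-3p and hsa-miR-196a-5p overlapped. The 8 members together took 3.46, 3.53 and 3.64% of all counts in total RNA and 3.42, 4.22 and 3.34% in m7G-RIP. The means of 3.55% ± 0.0899 and 3.66% ± 0.482 (SD, n = 3) differed by 0.116 percentage points (exact two-sided permutation p = 1). hsa-miR-10a-5p made up 81.1% ± 0.333 of the members' counts in total RNA and 80.2% ± 1.23 in m7G-RIP (SD, n = 3; exact two-sided permutation p = 0.3).

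Ratios of counts within a library need no scaling between libraries, so they show directly whether relatives and arms were recovered alike. With 3 against 3 libraries the smallest possible exact two-sided permutation p is 0.1, so none of these comparisons could pass 0.05. For miR-10, the ratio of hsa-miR-10a-5p to hsa-miR-10b-5p was 5.35, 5.58 and 5.65 in total RNA and 7.87, 7.37 and 7.71 in m7G-RIP. The groups did not overlap, and the share of hsa-miR-10b-5p in the reads of both fell from 15.3% ± 0.368 to 11.6% ± 0.346 (SD, n = 3). The log2 ratio was higher in m7G-RIP by 0.47, or 1.38-fold (exact permutation p = 0.1, adjusted p = 0.15 over the 6 pairs planned). These 6 pairs were set before the ratios were computed but with earlier results of these data known, a choice that the adjustment does not cover.

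For miR-196, the ratio of hsa-miR-196a-5p to hsa-miR-196b-5p was 3.17, 2.98 and 3.53 in total RNA and 4.37, 4.90 and 4.90 in m7G-RIP. Every m7G-RIP library was above every total RNA library. The log2 ratio was higher by 0.55, or 1.47-fold (exact permutation p = 0.1, adjusted p = 0.15), between miRNAs that differ only by A12C. The study's methods list STAR settings that keep reads aligning to more than 1 place. How such reads were then counted is not given in the sources used here. The split of reads between such close relatives, miR-10a and miR-10b included, is therefore uncertain. Whether reads of hsa-miR-196a-5p were counted for each of its hairpins is also unknown. That bears on its level against hsa-miR-196b-5p and hsa-miR-615-3p.

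For the arms of one hairpin, the ratio of hsa-miR-10a-5p to hsa-miR-10a-3p was 553, 538 and 689 in total RNA and 403, 516 and 591 in m7G-RIP. These values overlapped, with a log2 difference of -0.25 (exact permutation p = 0.4, adjusted p = 0.48). The ratio of hsa-miR-10b-5p to hsa-miR-10b-3p was 1249, 1891 and 2078 in total RNA and 576, 991 and 627 in m7G-RIP. Here the groups did not overlap and the log2 difference was -1.28 (exact permutation p = 0.1, adjusted p = 0.15), but the 3p arm had at most 45 counts in any library. For miR-196b the 3p arm was at the floor, so its pair carried no usable ratio, though it was kept among the 6 pairs of the adjustment.

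The arms of MIR615 were compared after the values had been seen, as was the pair hsa-miR-196a-5p and hsa-miR-10a-5p. The ratio of hsa-miR-615-3p to hsa-miR-615-5p was 225, 139 and 268 in total RNA and 38.0, 60.4 and 42.2 in m7G-RIP. The 5p arm thus went from 0.51% ± 0.18 of the reads of both arms to 2.17% ± 0.485 (SD, n = 3), with no overlap and a log2 difference in the 3p to 5p ratio of -2.14 (exact permutation p = 0.1, adjusted p = 0.133 over 8 pairs). The 5p arm remained the minor arm in all 6 libraries. From hsa-miR-10a-5p to hsa-miR-196a-5p, the most abundant member and the one with the highest log2 ratio, the within-library ratio changed 4.31-fold in favour of hsa-miR-196a-5p (log2 difference 2.11). This restates the log2 ratios of the 2 members, by which the pair was picked, so its separation was built in and no p is given. Nor does the p of the MIR615 arms lend support, as their values were known. Its adjusted p is below that of the planned pairs only because the added pairs also had the smallest possible p.

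Of the miRNAs of the HOXC cluster, hsa-miR-196a-5p has one of its genes there and hsa-miR-615-3p its only one. Their ratio was 0.330, 0.311 and 0.258 in total RNA and 0.569, 1.22 and 0.783 in m7G-RIP. hsa-miR-196a-5p was the less abundant in every total RNA library and the more abundant in m7G-RIP replicate 2 alone. The log2 ratio was higher in m7G-RIP by 1.45 (exact permutation p = 0.1, adjusted p = 0.15).

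**Figure D3:**
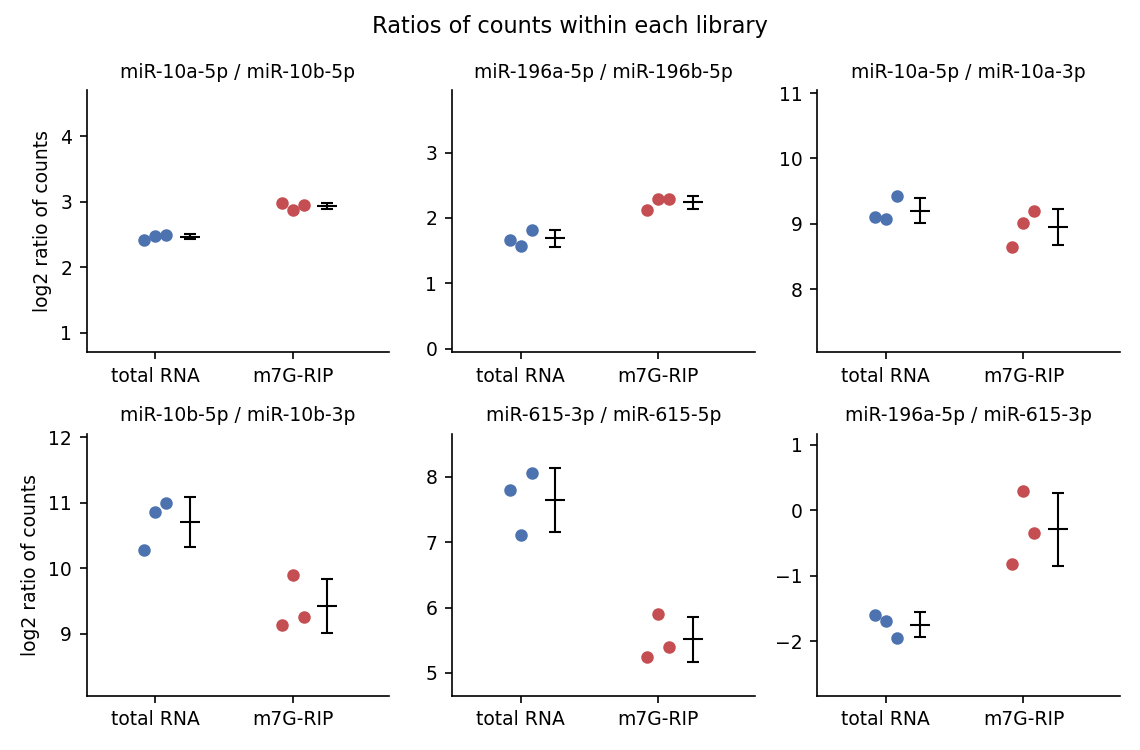
The log2 ratio of counts of 6 pairs within each total RNA (blue) and m7G-RIP (red) library, with black bars for the mean ± SD and axes that all span 4 log2 units. The pair miR-10a-5p to miR-10a-3p overlaps between the groups, and the other 5 pairs do not.

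The antibody is directed against a modified G, so the G content of the mature sequence was set beside the log2 ratio as a description. Every member with a sequence holds G, and whether G content bears on recovery was not tested. G content was 36.4% for both hsa-miR-196a-5p and hsa-miR-196b-5p, 27.3% for hsa-miR-10b-3p, 22.7% for hsa-miR-10a-3p and hsa-miR-615-3p, and 21.7% for hsa-miR-10a-5p. The 2 enriched members thus held the most G of the tested members with a sequence. hsa-miR-615-5p, with 45.5% G and a run of 5, had both more G and a higher log2 ratio than its 3p partner. Over the 557 tested miRNAs with a sequence, G content and the log2 ratio had a Pearson r of 0.410 and a Spearman rho of 0.436, a description across miRNAs of the same libraries, which are not independent replicates. For C content r was -0.0912 and rho was -0.188.

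The members can be set within bands of like G content. Between 20 and under 30% G, where 4 of them lie, 155 tested miRNAs had a median log2 ratio of -0.59, with 13.5% enriched and 36.8% depleted. hsa-miR-10a-5p was close to that median, and hsa-miR-10a-3p, hsa-miR-615-3p and hsa-miR-10b-3p were above it. Between 30 and under 40% G, the median of 138 miRNAs was -0.24, with 23.2% enriched, and both miR-196 guides were above it. At 40% G and over the median of 116 was 1.62. A run of 4 G was found in 70 of the 557 (12.6%), with a median log2 ratio of 1.66. hsa-miR-10a-3p and hsa-miR-10b-3p both hold it and were at -0.27 and 0.22.

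**Figure D4:**
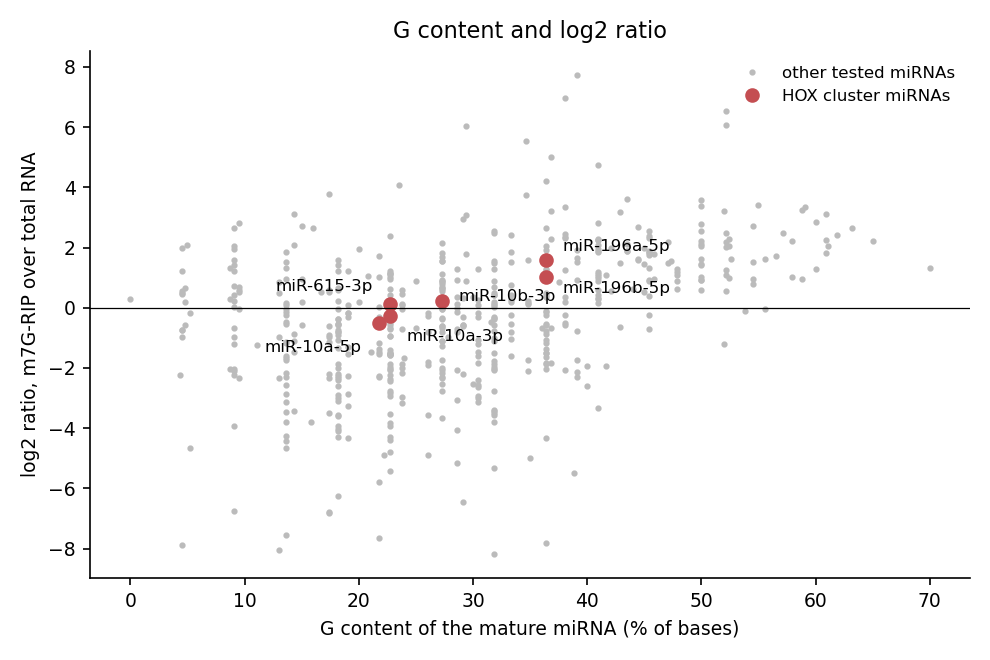
G content of the mature miRNA (percent of bases) against the log2 ratio of m7G-RIP to total RNA for the 557 tested miRNAs with a RefSeq sequence, the HOX cluster miRNAs in red. miR-196a-5p and miR-196b-5p sit at 36.4% G above 0, and the other 4 lie between 21.7 and 27.3% G with log2 ratios from -0.52 (miR-10a-5p) to 0.22 (miR-10b-3p).

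The miR-196 seed, AGGUAGU, resembles that of let-7, several members of which hold the same letters 1 base later. Read on the RNA strand only and at any position, AGGUAGU was found in 12 of the 557 tested miRNAs with a sequence (2.15%), among them both miR-196 guides. Of the 10 carriers other than these guides, 6 were enriched and 0 depleted, beside 23.5% and 29.2% of all tested miRNAs, with log2 ratios from -0.13 to 2.33 and a median of 0.69. The highest of these carriers, hsa-miR-6509-5p at 2.33, did not pass the test (edgeR adjusted p = 0.154). hsa-miR-196a-5p and hsa-miR-196b-5p stood at 1.60 and 1.03. The let-7 5p family with miR-98-5p, of which 8 of 9 are among these 10 carriers, had 7 enriched and 0 depleted, beside the same 23.5% and 29.2%. Its log2 ratios ranged from -0.13 to 2.24. The highest, 2.24, was that of hsa-let-7e-5p, the family member that does not hold AGGUAGU. A match is a description of letters, not of a methylated site.

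Relatives of miR-10 outside the HOX clusters are miR-99a-5p, miR-99b-5p and miR-100-5p, whose seed differs from that of miR-10a-5p. hsa-miR-10a-5p and hsa-miR-100-5p share the run guagauccgaa of 11 bases. Of the 3 relatives, 1 was enriched (hsa-miR-99b-5p, log2 ratio 1.15), 1 was depleted (hsa-miR-99a-5p, -2.07), and hsa-miR-100-5p was at 0.22 (edgeR adjusted p = 0.301). All 3 held 22.7% G, near the 21.7% of hsa-miR-10a-5p, whose own ratio of -0.52 lay between theirs.

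The miRNAs most like hsa-miR-196a-5p in pattern, by the Euclidean distance of log2 CPM centred over the 6 libraries among 306 miRNAs whose counts averaged 100 or more, members included, were miR-320a (distance 0.400), miR-2110 (0.404) and miR-92a-1-5p (0.413). Those most like hsa-miR-10b-5p were miR-151a-3p (0.121), miR-126-3p (0.239) and miR-23b-3p (0.261). The log2 ratios of the first set were 1.64 to 1.81 and those of the second -1.12 to -0.82. Their closeness to the members' own ratios was built in, because the distance was taken over the same 6 libraries.

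The calls of hsa-miR-196a-5p, hsa-miR-196b-5p and hsa-miR-10b-5p held in all 15 alternatives tried, with log2 ratios of 1.30 to 2.14, 0.75 to 1.58 and -1.35 to -0.43. Without m7G-RIP replicate 2, the highest m7G-RIP library for these, they were 1.30, 0.76 and -1.35, and hsa-miR-10a-5p was -0.85. Asking for at least a 2-fold change as well would leave out hsa-miR-10a-5p and, narrowly, hsa-miR-10b-5p. Otherwise only scaling changed member calls among these alternatives: hsa-miR-10a-5p lost its call and hsa-miR-615-3p gained one, both with library size alone and with library sizes taken without the 10 most abundant miRNAs.

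**Figure D5:**
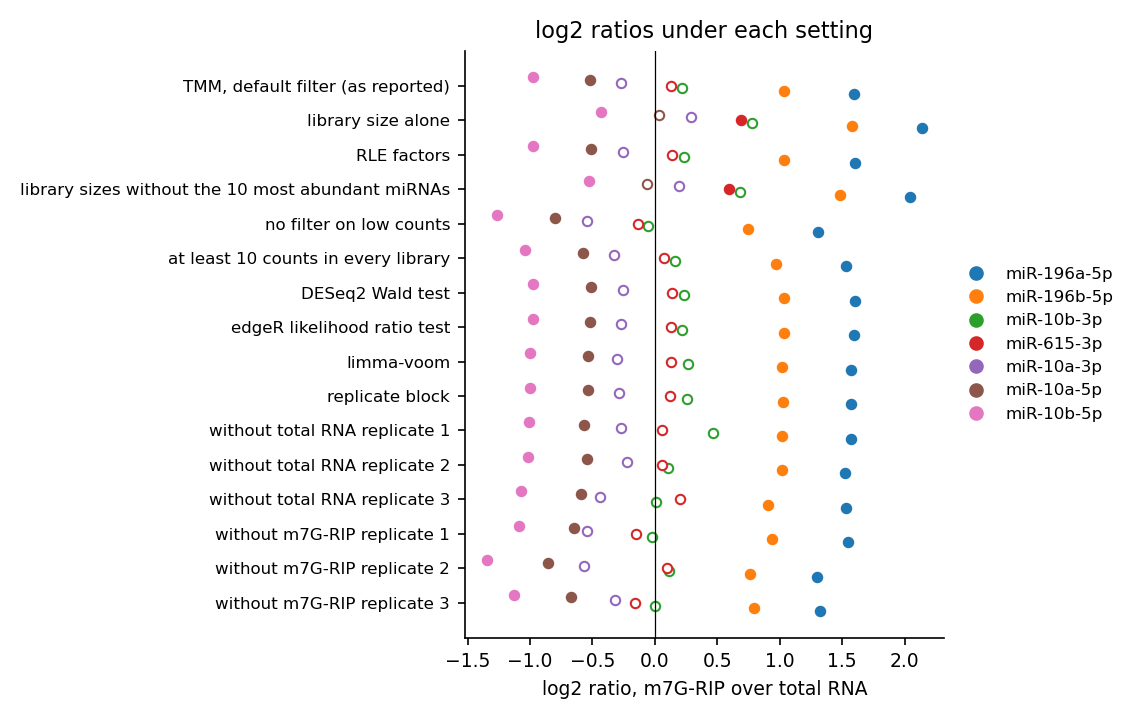
The log2 ratio of m7G-RIP to total RNA of each tested HOX cluster miRNA (colours) as reported, at the top, and under 15 other settings, with filled points at an adjusted p under 0.05 and open points otherwise. miR-196a-5p, miR-196b-5p and miR-10b-5p are filled throughout, whereas miR-10a-5p and miR-615-3p change with the scaling.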

How the data were processed

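RNA of A549 METTL1-knockdown cells was sequenced as small RNA libraries (NEBNext), 3 of total RNA and 3 after immunoprecipitation of heat-denatured RNA with an anti-m7G antibody. The authors deposited raw counts per mature miRNA. Per the study's methods reads were trimmed, aligned to GRCh38 with STAR and counted with featureCounts on miRBase miRNAs, whereas the submitters' processing notes list Trimmomatic, Bowtie2 and featureCounts, so the aligner is uncertain. Counts are PCR reads without molecular identifiers. No per-sample column was left unmapped.

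Groups and replicate numbers were taken from sample titles. Counts of all 2588 miRNAs were analysed with edgeR 4.0.16 in R 4.3.3: TMM, the default filter by group (620 kept), and the robust quasi-likelihood test, with Benjamini-Hochberg adjustment over 620 and a threshold of 0.05. The study's methods name a DESeq2 test, which was run as an alternative (DESeq2 1.42.0), as were limma-voom (limma 3.58.1), other scalings and filters, a replicate block, and each library left out in turn. Within-library ratios used 0.5 added to each count and exact two-sided permutation tests in scipy 1.17.1. Replicates differed by more than counting noise (chi-square per degree of freedom 22.2 to 112) and were kept separate. On simulated counts of 620 miRNAs for this comparison, of which 601 passed the filter, 98.9% of 4-fold and 67.4% of 2-fold changes were called in the right direction, and 0.973% of unchanged miRNAs were called. The simulation gave all miRNAs and both groups the same spread beyond counting noise (dispersion 0.05), with as many rises as falls. In the data m7G-RIP libraries spread more for several members and scaling moved the median, so these rates may not hold here.

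Named miRNAs were all 8 members, the other arms of their hairpins, relatives by sequence, and the 3 nearest patterns of the members with the highest and the lowest log2 ratio. Members, lists and tests were chosen with earlier results of these data known. Sequences and hairpins were from RefSeq (GRCh38.p14), with 2281 of 2588 names matched to a mature sequence and 557 of the 620 tested (89.8%).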

Additional observations from a re-analysis of the deposited data

How the results depend on the processing

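Of the 7 tested members, 2 were enriched and 2 depleted; 3 were enriched and 1 depleted with library size alone and with library sizes without the 10 most abundant miRNAs, and none depleted (0) at a minimum change of 2-fold, which left 2 enriched. With these scalings hsa-miR-10a-5p was at 0.031 and -0.066, hsa-miR-10a-3p at 0.29 and 0.19, and hsa-miR-615-3p at 0.69 and 0.59, the median of all miRNAs moving by 0.55 and 0.45. Over all 620 miRNAs, library size alone gave 216 enriched and 141 depleted against 146 and 181 with TMM, so the members' shares are relative to the scaling. With no filter on low counts hsa-miR-10b-3p was at -0.058 and hsa-miR-615-3p at -0.13, neither past the threshold. Leaving out m7G-RIP replicate 1 or 3 put hsa-miR-615-3p at -0.147 and -0.159 and hsa-miR-10b-3p at -0.0200 and -0.000692, again not past it; over the 6 libraries left out in turn they ranged from -0.159 to 0.202 and from -0.0200 to 0.464. The difference in the members' share of counts was -0.161 to 0.274 points with a library left out, negative without m7G-RIP replicate 2, and -1.55 points (exact permutation p = 0.4) with the most abundant other miRNAs out of the denominator. In place of G content, C content gave r = -0.0912 and G plus C content 0.328. Same-numbered libraries had correlations of deviations of -0.0477, -0.0883 and 0.0788, and 2 of 6 libraries were closest to their own number. These values cannot tell whether same-numbered libraries came from the same culture, and the titles give only the number. With the replicate block 2 members were enriched and 2 depleted, with 122 enriched and 175 depleted over all. Under this block hsa-miR-196a-5p was at 1.57, hsa-miR-196b-5p at 1.02, hsa-miR-10a-5p at -0.53 and hsa-miR-10b-5p at -1.0. Paired by number, the pairwise ratios could reach no p under 0.25. Depth limits the 3p arms of miR-10b and miR-196b most.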
